A study of Mus musculus with 3 samples.

Results

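The signal transducers and activators of transcription (STATs) and the Janus kinases were examined in RAW 264.7 cells, a mouse macrophage line, after a challenge with LPS, the TLR4 agonist. The set holds 9 genes, namely the STAT genes Stat2, Stat3, Stat4, Stat5a, Stat5b and Stat6 and the kinase genes Jak1, Jak2 and Tyk2, and does not cover every member of both families. They were found by symbol among the gene probes of the arrays, and 16 probes carried these symbols, out of 46056 probes for 26840 genes with a symbol. There was 1 array for each of 3 groups, all of RAW 264.7 cells that received LPS at 50 ng/mL. The LPS group had no lactobacilli, the CRL1505 + LPS group had first been given Lacticaseibacillus rhamnosus CRL1505, and the CRL1506 + LPS group Lactiplantibacillus plantarum CRL1506, each at 50000000 bacteria per mL for 24 h before the bacteria were washed away. The time under LPS is 12 h in the design text and 3 h in the sample descriptions. Cells without LPS were not analysed here, so all values describe single arrays of cells under LPS and none describes the response to LPS itself.

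Janus kinases sit on the intracellular tails of cytokine and interferon receptors and phosphorylate each other, the receptor and the STAT proteins recruited to it when a ligand binds. Phosphorylated STATs pair, enter the nucleus and bind DNA, and in macrophages they carry the response to the interferons, IL-6, IL-10, GM-CSF and IL-4 that the cells make or meet. STAT2 joins IRF9 in the complex that type I interferon activates, STAT3 follows IL-6 and IL-10 receptors, STAT5 follows GM-CSF receptors, and STAT6 follows the IL-4 receptor. The arrays measure the transcripts of these proteins and not their phosphorylation.

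With 1 array a group there are no replicates, no test across samples was possible, and no p-value is given. A difference was counted when it reached 2-fold, the fold rule stated in the study's methods. Its only yardsticks came from within the arrays. The log2 ratio to LPS differed between probes of the same gene with a median SD of 0.23 over 5487 genes for CRL1505 + LPS and of 0.22 over 6125 genes for CRL1506 + LPS. The ratio differed between repeated spots of 1 probe with an SD of 0.05 and 0.04. The CRL1505 + LPS array was hybridised on a slide of its own and scanned in another run than the other arrays, and 48.5% of its gene spots were well above background against 54.5% for LPS and 55.3% for CRL1506 + LPS. Strain and slide therefore cannot be told apart for CRL1505 + LPS. Of 7 macrophage markers, 7, 6 and 6 were well above background for LPS, CRL1505 + LPS and CRL1506 + LPS, with Mrc1 missing on both arrays of treated cells. All 4 T cell markers looked at were well above background on every array too, with unscaled summed intensities of 4460, 5830 and 4946. The higher sum after CRL1505 came from Lck, at 2300, 4389 and 3093, while Cd3e, Cd3d and Cd4 were highest under LPS alone, before scaling. The arrays differed in brightness, with a 75th percentile of 743.1 under LPS alone, 517.0 after CRL1505 and 697.9 after CRL1506. The unscaled order of these markers thus does not give the order of their scaled levels. For LPS, CRL1505 + LPS and CRL1506 + LPS, 0, 1 and 3 of 4 fibroblast markers were well above background. For epithelial cells it was 1, 0 and 1 of 4 markers, and for B cells 1 of 3 on each array. The part of these transcripts in any result was not tested.

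Of the 16 probes, 12 were well above background on all arrays and 2 on none. The sequences below are those of some of the member probes, written 5′ to 3′ as deposited, with positions in the mouse build mm9. For Stat3 and Stat5a it is the brightest probe, on which the ratio of the gene rests. For Jak2 and Stat2 it is the dimmer probe, which was only set beside the brighter one. Whether a probe lies in an exon or a UTR was not read from an annotation here.
Jak2, the dimmer of 2 probes, chr19:29363211-29363270, plus strand: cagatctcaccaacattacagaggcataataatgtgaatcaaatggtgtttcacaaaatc
Stat3, the brightest of 3 probes, chr11:100749598-100749657, minus strand: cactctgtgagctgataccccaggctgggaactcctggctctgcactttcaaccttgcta
Stat2, the dimmer of 2 probes, chr10:127719861-127720302, plus strand: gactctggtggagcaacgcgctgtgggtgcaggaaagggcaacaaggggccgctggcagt
Stat5a, the brighter of 2 probes, chr11:100745240-100745299, plus strand: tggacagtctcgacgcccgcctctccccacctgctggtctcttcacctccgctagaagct
The Jak2 and Stat3 probes each had 1 reading frame of 3 without a stop. The Stat2 probe had 3 such frames and the Stat5a probe had 2, and the Stat2 probe spanned 442 bases of the genome.

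Among the kinases, Jak2 was the one whose transcript was at least 2-fold higher with CRL1505. JAK2 serves the receptors for interferon gamma, GM-CSF, IL-3 and growth hormone. Its brighter probe, at chr19:29386381-29386440, had an intensity of 2351 under LPS alone, 4718 after CRL1505 and 3202 after CRL1506, or 1.66, 3.19 and 2.20 in log2 units above the 75th percentile of each array. The array of CRL1505 + LPS was thus the highest, that of LPS the lowest and that of CRL1506 + LPS in between. Jak2 was 2.88-fold higher than LPS with CRL1505 (log2 ratio 1.53) and 1.45-fold higher with CRL1506 (0.54). The other Jak2 probe lay 23110 bases upstream and gave 2.78-fold (1.47) and 1.69-fold (0.76). Both Jak2 probes therefore placed CRL1505 + LPS past 2-fold and CRL1506 + LPS under it. In a bulk extract, more RNA per cell and more cells that carry it cannot be told apart.

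Tyk2 and Jak1, which serve the type I interferon receptor together, stayed under 2-fold with both strains by their brightest probes. Scaled log2 levels of Tyk2 were 0.48 under LPS alone, 0.97 after CRL1505 and 0.11 after CRL1506. Tyk2 was thus highest with CRL1505 and lowest with CRL1506, 1.41-fold above LPS (0.50) and 1.29-fold below it (-0.37). Its dimmer probe was well above background on the LPS and CRL1505 + LPS arrays and not on the CRL1506 + LPS array. That probe gave a log2 ratio of 0.09 for CRL1505, and with CRL1506 it was at least 2.13-fold lower than LPS. For a gene with 1 side not well above background, the fold is a bound. It was taken against that side's own signal or the lowest signal well above background on that array, whichever was higher. Jak1, read by a single probe, had scaled log2 levels of 2.88, 3.21 and 2.89 in the same order of arrays. The log2 ratio of Jak1 to LPS was 0.33 with CRL1505 and 0.02 with CRL1506, the latter smaller than the median SD between probes of a gene.

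**Figure D1:**
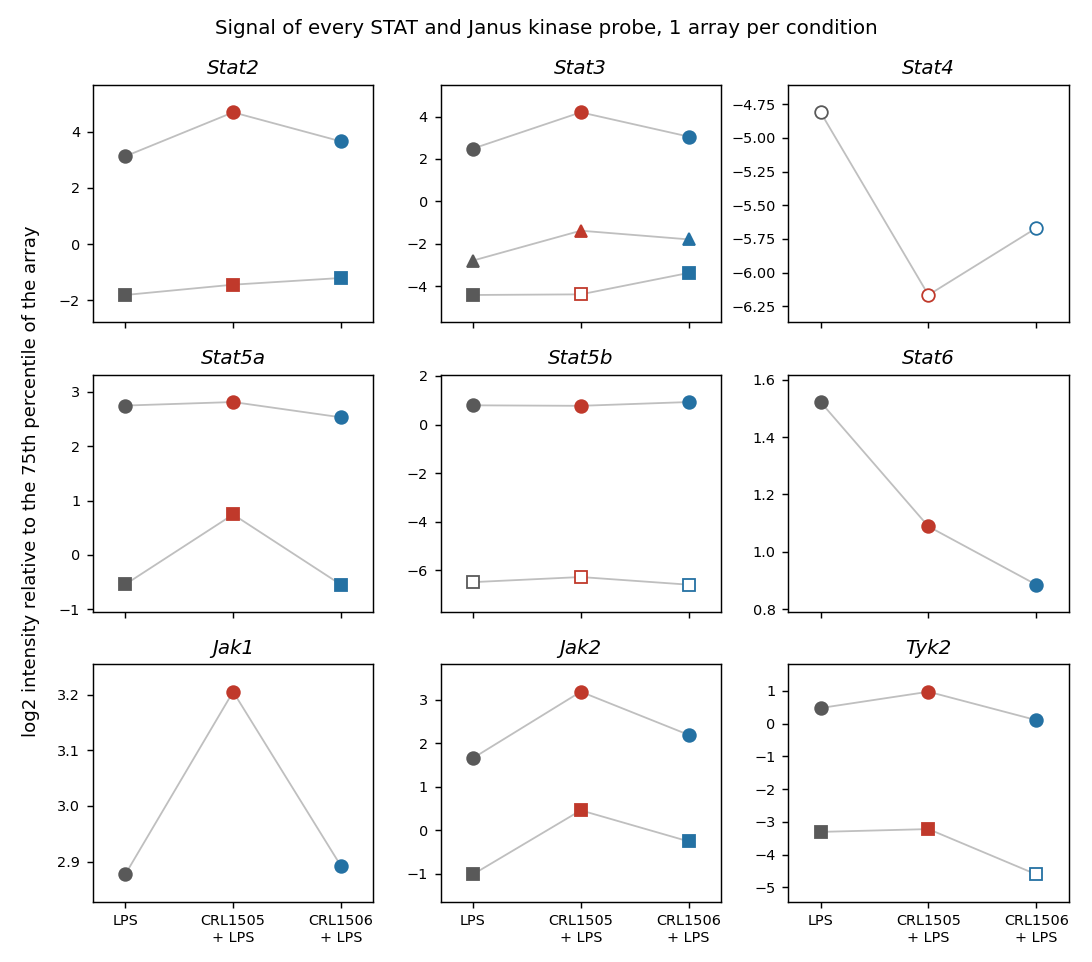
Scaled log2 level (log2 intensity minus the 75th percentile of the array) of each probe of the 9 members on the arrays of LPS, CRL1505 + LPS and CRL1506 + LPS, 1 array a group and therefore without error bars. Circles are the brightest probe of a gene, squares and triangles its other probes, and open symbols were not well above background. Stat2, Stat3 and Jak2 are highest on the CRL1505 + LPS array with their brightest probe, and the open symbols of Stat4 mark levels not well above background.

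Stat3 showed the largest difference of the set. STAT3 carries the response to IL-6 and, in macrophages, the anti-inflammatory response to IL-10. Intensities of its brightest probe were 4170.1 under LPS alone, 9486 after CRL1505 and 5795 after CRL1506, with scaled log2 levels of 2.49, 4.20 and 3.05. The order was the same as for Jak2. Stat3 was 3.27-fold above LPS with CRL1505 (1.71) and 1.48-fold above it with CRL1506 (0.57, as 0.565 before rounding). A dimmer Stat3 probe, 10288 bases upstream, had intensities of 107.5, 198.6 and 201.8. It was 2.66-fold above LPS with CRL1505 (1.41) and also close to 2-fold with CRL1506 (0.999). The dimmest Stat3 probe, 3076 bases downstream of the brightest, was well above background on the LPS and CRL1506 + LPS arrays with a log2 ratio of 1.04, and was not on the CRL1505 + LPS array. The 3 Stat3 probes thus did not share 1 order of the strains.

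Stat2 had the next largest ratio, and its product is the STAT of the type I interferon complex. The brighter Stat2 probe had intensities of 6484 under LPS alone, 13339.9 after CRL1505 and 8795 after CRL1506, with scaled log2 levels of 3.13, 4.69 and 3.66. Stat2 was 2.96-fold above LPS with CRL1505 (1.56) and 1.44-fold above it with CRL1506 (0.53). The dimmer probe, printed above and 9531 bases upstream, had scaled log2 levels of -1.81, -1.44 and -1.21 in the same order of arrays. It gave log2 ratios of 0.37 with CRL1505 and 0.61 with CRL1506. The Stat2 probes thus agreed within 0.08 for CRL1506 and differed by 1.20 for CRL1505, where the mean over both probes is 0.97 and misses 2-fold.

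Stat5a and Stat5b, close relatives that follow GM-CSF and IL-3 receptors, differed little from LPS with their brightest probes. Scaled log2 levels of Stat5a were 2.75, 2.82 and 2.53 for LPS, CRL1505 + LPS and CRL1506 + LPS, and those of Stat5b were 0.79, 0.77 and 0.93. The Stat5a ratios were 0.07 with CRL1505 and -0.22 with CRL1506, and the Stat5b ratios were -0.02 and 0.14. All of these were within about 1 median SD between probes. The dimmer Stat5a probe, at chr11:100746373-100746432, had intensities of 509.1, 865.1 and 476.4, which gave 2.44-fold above LPS with CRL1505 (1.29) and a log2 ratio of -0.01 with CRL1506. The probes of Stat5a thus differed by 1.22 for CRL1505. On the LPS array, 13 of the 20 spots nearest to the brighter Stat5a probe had uneven pixels, while its own spot was not uneven. The part of that area in the Stat5a ratio was not tested.

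Stat6 was the member that was lower than LPS with both strains. STAT6 carries the response to IL-4 and IL-13. Its single probe had intensities of 2134 under LPS alone, 1099 after CRL1505 and 1289 after CRL1506, with scaled log2 levels of 1.52, 1.09 and 0.89 (0.885). Stat6 was 1.35-fold below LPS with CRL1505 (-0.43) and 1.56-fold below it with CRL1506 (-0.64), both larger than the SD between probes and under 2-fold. Stat4, which follows the IL-12 receptor of lymphoid cells, stayed too close to background on each of the 3 arrays, with intensities of 26.5, 7.20 and 13.7, and no ratio was taken.

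Counted together, 8 members could be compared. With CRL1505, 3 of 8 members were at least 2-fold above LPS, where 9.93% of 15603 genes compared were, and 0 were 2-fold below, where 8.41% were. With CRL1506, 0 of 8 were 2-fold above and 0 below, against 5.67% and 3.53% of 16279 genes. The median log2 ratio of the members was 0.41 with CRL1505 and 0.08 with CRL1506 (0.075). Over all genes well above background on both arrays compared, it was 0.06 and -0.07 (-0.065). Both comparisons use the same LPS array. Of the genes compared, 4.06% had a higher ratio than Stat3 with CRL1505, 4.81% a higher one than Stat2 and 5.01% a higher one than Jak2. The scaling was varied in 7 ways. Under each of them Stat2, Stat3 and Jak2 stayed past 2-fold with CRL1505, with log2 ratios from 1.06 to 1.86, from 1.20 to 2.01 and from 1.02 to 1.82. The ratios of Stat5a, Stat5b, Jak1 and Tyk2 with CRL1505 crossed 0 over these scalings, from -0.44 to 0.36, from -0.53 to 0.28, from -0.18 to 0.62 and from -0.01 to 0.79. Stat6 stayed below 0 with both strains, from -0.94 to -0.14 with CRL1505 and from -0.84 to -0.57 with CRL1506. One scaling, by spike-ins, moved the median of all genes with CRL1505 to -0.45 and the shift by the median moved it to 0.35.

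**Figure D2:**
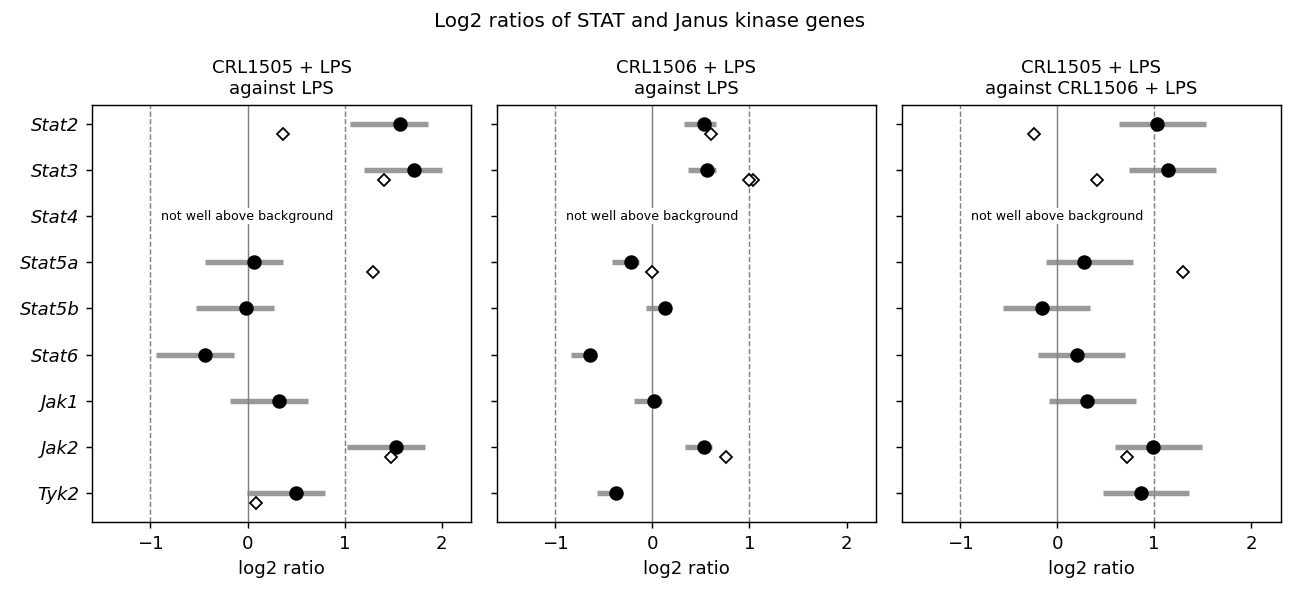
Log2 ratio of the members in the 3 comparisons of arrays. Black dots are the brightest probe, open diamonds the other probes and grey bars the range over the 7 scalings. Bounds, which dimmer probes of Tyk2 and Stat3 gave, are not drawn. Dashed lines mark 2-fold. Stat2, Stat3 and Jak2 lie past 2-fold with CRL1505 over the whole grey bar, no brightest probe lies past 2-fold with CRL1506, and in the comparison of the strains no grey bar lies wholly past 2-fold.

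The strains can also be compared without the LPS array. Against CRL1506 + LPS, 2 of 8 members were at least 2-fold higher with CRL1505, where 9.02% of 15780 genes were, and 0 were lower, where 7.47% were. Stat3 was 2.21-fold higher (1.14) and Stat2 2.05-fold higher (1.03), while Jak2 stood at 1.99-fold (0.99) and Tyk2 at 1.82-fold (0.87). By their brightest probes, Stat5a, Jak1 and Stat6 were higher by 0.28, 0.31 and 0.20 on the log2 scale and Stat5b was lower (-0.16). All of these are at or below the median SD between probes in this comparison, 0.33. Stat2, Stat3, Jak2 and Tyk2 kept a ratio above 0 in the 7 scalings, at 0.64 (0.635), 0.75 (0.745), 0.59 and 0.47 as their lowest, and 2-fold was reached by Stat3 in 2 of 7 and by each of the others in 1 of 7. The dimmer Stat2 probe gave -0.24 here, against the brighter one, and the dimmer Jak2 probe gave 0.72 (0.715). The next Stat3 probe gave 0.41, and the dimmest, not well above background with CRL1505, was at least 1.69-fold lower with CRL1505 than with CRL1506, the reverse of the brightest. The dimmer Stat5a probe was 2.45-fold higher with CRL1505 (1.29), unlike the brighter one.

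The rest of the pathway was followed in 8 lists of genes, where a gene was again its brightest probe and bounds counted as values. The median of all genes that is set beside list medians leaves bounds out. The shares of all genes to read these counts against are 9.93% higher and 8.41% lower with CRL1505, and 5.67% and 3.53% with CRL1506. Of cytokines that signal through Janus kinases, 13 of 22 could be compared, and 8 were at least 2-fold above LPS with CRL1505 (7 to 10 over the 7 scalings) and 5 with CRL1506 (3 to 5), with 0 lower. Among these ligands of the kinases, Ifnb1 had log2 ratios of 3.47 and 2.31, Il6 of 4.25 and 2.35 and Csf3 of 3.53 and 2.35 with CRL1505 and CRL1506. The other cytokine genes counted with CRL1506 were Il19 and Il2. With CRL1506, Il19 stood at 1.23, from 0.56 to 1.29 over the scalings, and its other probe gave 0.59. With CRL1505, Il19 had the highest ratio of this list, 6.57, from 5.41 to 6.87 over the scalings. Its other probe gave 5.54 (5.535) there. Il2 was not well above background under LPS alone. Its bound of 1.36 with CRL1506, down to 0.75 over the scalings, came from an uneven spot. The cytokine list's median lay 1.61 above that of all genes with CRL1505 and 0.02 above it with CRL1506.

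Of 30 receptor chains compared with CRL1505, 2 were 2-fold higher and 1 lower (2 to 5 and 1 to 5 over the scalings), and of 31 with CRL1506, 3 were higher and 1 lower (2 to 3 and 0 to 2). The share higher with CRL1506, 3 of 31, was above the 5.67% of all genes, and the other shares were near or below those of all genes. Ifnar1, the chain of the type I interferon receptor that binds TYK2, stood at 0.46 with CRL1505 and 1.37 with CRL1506, but its 4 probes ran from -0.43 to 1.37 with CRL1506. Il7r stood at 1.24 with CRL1506, and Il27ra at 1.07, which ran from 0.27 to 1.13 over the scalings. Il15ra, which presents IL-15, stood at 1.70 with CRL1505 and -0.11 with CRL1506. Its 3 probes ran from 1.70 to 2.98 with CRL1505 and from -0.11 to 1.40 with CRL1506. Set directly against CRL1506 + LPS, all 3 probes were higher with CRL1505, from 1.18 (1.175) to 1.81. Il23r was not well above background under LPS alone, and its bound with CRL1505 was 2.89, from 1.74 to 3.37 over the scalings. Il6ra, the chain that binds IL-6 upstream of STAT3, stood at -1.31 (-1.305) with CRL1505 and -0.25 with CRL1506. Il10ra, the IL-10 receptor chain upstream of STAT3, stood at -1.09 with CRL1506 and -0.18 with CRL1505. The receptor list as a whole had a median 0.07 below that of all genes with CRL1505 and 0.06 above it with CRL1506.

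Of 19 inhibitors of the pathway, 4 were at least 2-fold higher with CRL1505 and 0 lower (2 to 5 and 0 to 1 over the scalings), and 1 was higher and 1 lower with CRL1506 (0 to 1 and 1 to 2). The CRL1506 counts are near the shares of all genes. The list's median lay 0.04 below that of all genes with CRL1505 and 0.15 below it with CRL1506. The inhibitor proteins SOCS1 and SOCS3 block Janus kinases, and Socs1 had log2 ratios of 1.54 and 0.31 (0.305) with CRL1505 and CRL1506. Socs3 stood at 1.48 and -0.49. Usp18, which restrains the type I interferon receptor, stood at 2.13 and 0.63. Socs2, named after its values were seen, was not well above background under LPS alone. The Socs2 bound was 1.02 with CRL1505 and 2.60 with CRL1506, but it fell to 0.51 and 0.88 over the scalings, which ends both 2-fold calls, and its spot on the CRL1506 + LPS array was uneven. Cish, a SOCS gene induced through STAT5, stood at -1.34 (-1.335) with CRL1506 and -0.10 with CRL1505.

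Of 10 partners and coactivators, Nmi, a STAT-binding protein, was the 1 past 2-fold with CRL1505, at 1.41 and from 0.90 to 1.71 over the scalings, and 0 were with CRL1506. Irf9, the DNA-binding partner of STAT2, stood at 0.42 with CRL1505 and -0.16 with CRL1506.

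Targets were counted by the STAT that is known to act on them. Of 18 STAT2 and interferon targets, 17 were at least 2-fold above LPS with CRL1505, the exception being Irf9, and 5 of 18 with CRL1506, with 0 lower in either. The list's median log2 ratio was 1.97 with CRL1505 and 0.84 with CRL1506. Over the 7 scalings, 14 to 17 of 18 passed 2-fold with CRL1505 and 2 to 9 with CRL1506. Ifit2, Ifit3 and Cmpk2 led with CRL1505 at 2.82, 2.71 and 2.57, and had 0.94, 1.26 and 1.15 with CRL1506. The others past 2-fold with CRL1506 were Oas2 (1.51), Rsad2 (1.11) and Mx1 (1.08), the last 2 named after their values were seen. This list shares Usp18 with the inhibitors and Irf9 with the partners.

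STAT3 targets were less far from all genes. Of 10, 2 passed 2-fold with CRL1505 (0 to 4 over the scalings), namely Socs3, from 0.98 to 1.78, and the kinase gene Pim1 at 1.26, from 0.75 to 1.56. All 10 had ratios above 0 with CRL1505 (7 to 10 over the scalings), and 2 of 10 did with CRL1506. With CRL1506, Bcl3 stood at -1.13 and Etv3 at 1.02, but the other Etv3 probe gave -0.18 and the scalings took its brightest probe down to 0.82. The list's median lay 0.57 (0.565) above that of all genes with CRL1505 and 0.17 below it with CRL1506.

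Of 8 STAT5 targets, 3 passed 2-fold upward with CRL1505 (1 to 3 over the scalings), namely Osm (2.02), Pim1 and the bound of Socs2. With CRL1506, Socs2 was counted as higher and Cish as lower. The STAT5 list's median lay 0.13 below that of all genes with CRL1505 and 0.05 above it with CRL1506. Of 9 STAT6 targets compared with CRL1505, 3 were higher and 2 lower (1 to 3 and 2 to 3 over the scalings), and of 8 with CRL1506, 0 were higher and 3 lower (2 to 3). The lectin gene Clec7a was lower with both strains (-1.79 and -1.53), although another probe gave -0.46 with CRL1506. The chemokine gene Ccl24 stood at -3.82 with CRL1506. With CRL1505 it was not well above background and was counted as lower, with a bound of -4.22, from -4.73 to -2.84 over the scalings. Ccl17 stood at -1.19 (-1.185) with CRL1506, from -1.48 to -0.62 over the scalings, and at -0.82 with CRL1505. Chil3 and Klf4 stood at 1.22 (1.215) and 1.10 with CRL1505 and fell to 0.71 and 0.60 over the scalings. Retnla, also named after its values were seen, was counted as higher with CRL1505 from an uneven spot, with a bound of 2.86 that fell to 1.61 over the scalings. The STAT6 list therefore held genes on both sides of LPS with CRL1505. Its median minus that of all genes was 0.34 with CRL1505 and -0.50 with CRL1506.

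**Figure D3:**
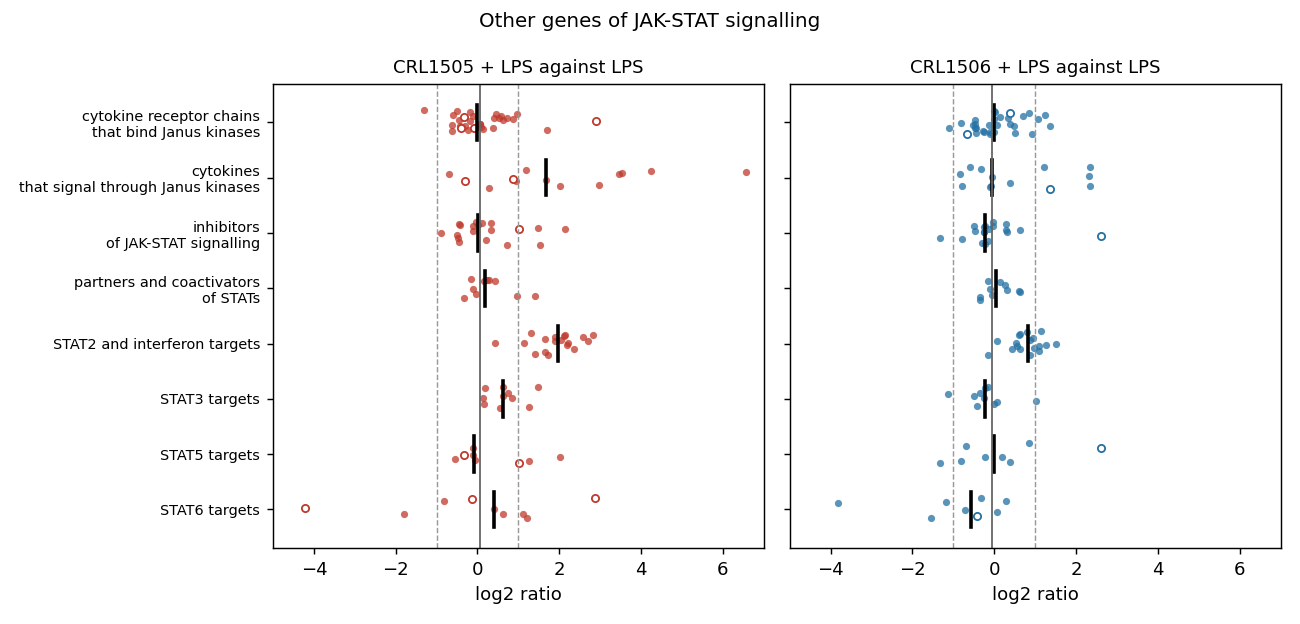
Log2 ratio to LPS of each compared gene in 8 lists of JAK-STAT pathway genes, with CRL1505 and CRL1506 in separate panels and 1 array a group. Open circles are bounds, black bars the median of the list with its bounds and the grey line the median of all genes without bounds. The STAT2 and interferon targets lie above 0 with CRL1505, with 17 of 18 past 2-fold.

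The genes of the lists whose pair of ratios lay nearest to that of Stat3 were found by Euclidean distance over 97 genes well above background on all 3 arrays. Isg15, a ubiquitin-like interferon target, was nearest at 0.03 (0.025), with log2 ratios of 1.72 and 0.54 with CRL1505 and CRL1506. Ddx58, the RNA sensor RIG-I, followed at 0.14 with 1.66 and 0.43, and Socs1 at 0.31. The distance rests on 2 ratios that share the LPS array.

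The promoters of the 3 members past 2-fold are given as the 250 bases before the start site in RefSeq on GRCm38.p6, 5′ to 3′ on the strand of the gene. Capitals mark matches to 2 motifs searched on both strands, to 50 bases past the start. The first is TTTC and TTTC with any 2 bases between them, the core of the element bound by the STAT2 complex. The second is TTC and GAA with any 4 bases between them, the spacing that STAT6 can bind.
Stat2, chr10:128270248-128270497, plus strand: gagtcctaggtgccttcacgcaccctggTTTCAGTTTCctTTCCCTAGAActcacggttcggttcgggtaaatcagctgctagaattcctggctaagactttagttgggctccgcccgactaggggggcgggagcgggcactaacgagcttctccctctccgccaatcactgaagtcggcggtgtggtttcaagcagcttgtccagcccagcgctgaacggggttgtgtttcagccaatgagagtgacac
Stat3, chr11:100939541-100939790, minus strand: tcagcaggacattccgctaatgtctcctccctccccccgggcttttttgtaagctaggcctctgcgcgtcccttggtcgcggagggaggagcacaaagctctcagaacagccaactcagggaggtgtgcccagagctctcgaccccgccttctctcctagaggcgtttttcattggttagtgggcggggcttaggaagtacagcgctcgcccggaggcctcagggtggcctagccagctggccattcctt
Jak2, chr19:29251553-29251802, plus strand: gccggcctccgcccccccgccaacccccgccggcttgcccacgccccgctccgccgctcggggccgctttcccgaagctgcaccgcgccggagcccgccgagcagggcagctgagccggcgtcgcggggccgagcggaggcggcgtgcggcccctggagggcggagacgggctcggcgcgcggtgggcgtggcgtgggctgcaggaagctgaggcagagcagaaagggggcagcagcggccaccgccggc
The Stat2 promoter held TTTCAGTTTC at positions -222 to -213 from the start and TTCCCTAGAA at positions -210 to -201. Those of Stat3 and Jak2 held neither motif, and Jak2's was 80.8% G and C against 56.8% for Stat2's. TTCNNNGAA, the spacing of most STATs, was in 0 of 12 windows of the 9 members, beside 8.3% of 32851 windows in all. The motif with 4 bases between was in 1 of 12, beside 6.95%, and the TTTC pair in 2 of 12, Stat2 and the second start of Stat4, beside 3.44%.

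Among the STAT2 and interferon targets, 14 of 18 had a promoter in the table, and 9 of their 16 windows held the TTTC pair on either strand. The windows of Isg15 and of Socs1, among the 3 genes nearest to Stat3 in their ratios, are shown with 10 bases on each side. Matches are in capitals, and overlapping matches form 1 run.
Isg15, chr4:156200865-156200906, minus strand: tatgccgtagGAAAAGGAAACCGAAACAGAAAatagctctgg
Socs1, chr16:10785594-10785629, minus strand: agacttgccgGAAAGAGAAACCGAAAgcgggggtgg
Isg15 held 3 matches and Socs1 held 2. Ddx58, also among those 3 genes, held 1 match at positions 2 to 11 from the start, past the start site, and is not shown. Of the members past 2-fold with CRL1505, Stat2 shares this motif and Stat3 and Jak2 do not within the window searched. A match describes the letters of the window and is not a measured binding site.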

How the data were processed

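RNA of RAW 264.7 cells was labelled with Cy3 and hybridised to SurePrint G3 mouse arrays. The authors deposited, per array, Feature Extraction output (version 12.0.3.1 in the file headers) whose processed signal is an intensity with background subtracted, not normalized between arrays. A further deposited table holds log2 values that had been normalized between arrays, a step for which the study's methods name GeneSpring.

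Outlier spots were left out. From the log2 processed signal of an array, the 75th percentile over its gene spots was subtracted, which was an intensity of 743.1 under LPS alone, 517.0 after CRL1505 and 697.9 after CRL1506. No gene spot was saturated. Repeated spots were averaged, and a gene was its probe with the highest mean. Probes well above background on neither array were left out. The number of arrays, 1 a group, limits the precision.

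All members were named. From each list, up to 3 genes highest and up to 3 lowest past 2-fold in each comparison with LPS could be named, and the 3 nearest to the member with the largest ratio. Members and lists were chosen with earlier results of these data known. Alternatives were 7 scalings (the shift by the median, the 75th percentile over detected probes, spike-ins, quantile, cyclic loess, normexp with an offset of 50, the deposited log2 table), no filter on dim probes, the mean over probes, outlier spots kept, uneven spots left out and a threshold of 1.5-fold. Scripts ran in Python 3.11.15 and R 4.3.3 with limma 3.58.1 and were tested on simulated data.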

Additional observations from a re-analysis of the deposited data

Results flagged for a closer look

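Stat5a, Stat5b and Tyk2 lay on opposite sides of LPS with the 2 strains, and these differences were not tested, since each group holds 1 array. The log2 ratios with CRL1505 and CRL1506 were 0.07 (0.065) and -0.22 (-0.217) for Stat5a, -0.02 (-0.021) and 0.14 (0.135) for Stat5b, and 0.50 (0.499) and -0.37 (-0.369) for Tyk2. The Stat5a and Stat5b values were within about 1 median SD between probes of a gene, and the CRL1505 value of each of the 3 genes changed sign over the 7 scalings.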

How the results depend on the processing

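No paired analysis was possible because each group holds 1 array, and for the same reason no replicate could be left out. Of the members' log2 ratios under the alternatives, 221 moved by less than the spread between probes and 40 by more, and none of the called ratios changed sign. Part of the 221 could not move. No member probe had an outlier spot, so keeping outlier spots changed no ratio. The brightest probes of the 8 members compared were well above background on all arrays, so lifting the filter left their ratios as they were. With CRL1505 against LPS, 3 members stayed at least 2-fold higher under each of the 7 scalings, 2 with the mean over probes (without Stat2) and 4 with uneven spots left out (Stat5a then rests on its dimmer probe). Without a filter on dim probes, 1 member was 2-fold lower with CRL1505, and at a threshold of 1.5-fold, 1 was lower with CRL1506. The count of members higher with CRL1505 than with CRL1506, 2 as reported, was 4 with the shift by the median and at a threshold of 1.5-fold, 1 with normexp, and 0 with the 75th percentile over detected probes, spike-ins, quantile, cyclic loess, the deposited table and the mean over probes. Without a filter on dim probes, the median minus that of all genes was -0.31 (-0.313) for receptors and 0.97 (0.968) for cytokines with CRL1505, and -0.02 (-0.022) for STAT6 targets with CRL1506. The cause of these shifts was not tested. Probes near background limit Stat4, a Stat5b probe and the dimmest probes of Stat3 and Tyk2. With uneven spots left out, Stat5b gave no value.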

Other observations

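Stat3 and Stat5a are neighbours on chromosome 11 and their probes lie on opposite strands. In mm9 the dimmer Stat5a probe ended 29 bases before the dimmest Stat3 probe began. The dimmer Stat5a probe had intensities of 509.1 under LPS alone, 865.1 after CRL1505 and 476.4 after CRL1506, and the dimmest Stat3 probe had 35.0, 24.8 and 67.5. On these arrays the pair thus did not share 1 order of the groups.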
